A study of Rattus norvegicus with 12 samples.

Results

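The genes described here are the cell cycle machinery of the rat bone defect: every gene of the deposited table whose pathway annotation holds the term "Cell cycle", except the growth factors Tgfb1, Tgfb2 and Tgfb3. This gave 120 of the 22601 genes. They were followed in bulk polyA RNA of the tissue in a distal femur defect of Sprague Dawley rats, which were 8 weeks old at surgery, collected 2 weeks after surgery. There were 4 groups of 3 libraries: a printed scaffold of PCL (polycaprolactone, a slowly degrading polyester), of β-TCP (β-tricalcium phosphate, a resorbable ceramic) or of GelMA hydrogel (light-cured methacrylated gelatin), and a control group in which the defect was left without a scaffold. The 4 groups share the same drilled defect, strain and time, and differ by the implant. By the study's methods the material ground for RNA differed too. It was new tissue in the control group, and the scaffold with its cells and regenerated tissue in the scaffold groups. A library is named below by its group and its replicate number, so that control 3 is replicate 3 of the control group. The study's methods speak of at least 3 independent samples per group in its statistical analyses. The sources do not state that each library came from a separate rat. Each p-value then speaks only to the variation among the libraries at hand, which may be technical.

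The cell cycle is driven by cyclin-dependent kinases (CDKs), which act only when bound to a cyclin. In G1, D-type cyclins with Cdk4 and Cdk6, and then E-type cyclins with Cdk2, phosphorylate the retinoblastoma protein family and release E2F transcription factors, which switch on the genes of DNA synthesis. Origins are licensed by the origin recognition complex, Cdc6 and the Mcm2 to Mcm7 helicase, and Cdk1 with cyclins A and B drives mitosis until the anaphase-promoting complex (APC/C) destroys the cyclins. CDK inhibitors of the Cip/Kip family (Cdkn1a to Cdkn1c) and the Ink4 family (Cdkn2a to Cdkn2c) hold the kinases back. In healing bone, dividing cells include marrow precursors of blood cells, skeletal progenitors and vascular cells.

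Values are FPKM, the fragments of a gene scaled to its length and to the library size. A total of 116 of the 120 genes had at least 1 FPKM in at least 3 libraries and were tested, among 12633 genes in all. Ccna1, the cyclin A of germ cells, Ccnb3, the oocyte kinase gene Wee2 and the meiotic cohesin gene Smc1b did not pass this filter, and Smc1b was listed at 0 in all 12 libraries. The test was that of limma, fitted once to log2(FPKM + 1) of all 12 libraries, and a log2 fold change on this scale understates the change of a gene with low FPKM. A gene was called at a Benjamini-Hochberg adjusted p under 0.05 over the 12633 genes. Genes are also counted at the threshold of the study's methods, which asks for an unadjusted p below 0.05 together with a change of more than 2 times in either direction.

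Some libraries stood apart. The depth recovered from the FPKM steps was similar throughout, at 15035925 to 17357830 fragments per library. β-TCP 2 and β-TCP 3 were much closer to each other than any other pair of libraries of 1 group: their chi-square per gene was 2.16, against 31.8 to 316 in the other 11 pairs. Their difference was above counting noise on average, so both were kept. The median chi-square over genes was 0.717 in this pair. The main counts over all cell cycle genes were also computed with the pair averaged, whereas counts by role and by marker list were not. Control 3 lay far from control 1 and control 2 and held the lowest value of the 12 libraries in 76 of the 116 cell cycle genes tested, whereas hydrogel 3 held the highest in 70 and PCL 3 in 20. Hemoglobin transcripts (12 genes) took up 10.7%, 16.9% and 25.8% of the FPKM in the PCL libraries, 7.41%, 3.65% and 3.49% in the β-TCP libraries, 18.0%, 10.01% and 19.0% in the hydrogel libraries and 9.23%, 14.6% and 1.03% in the control libraries. Genes of osteoblasts, the label's tissue being bone, were present in every library: the summed FPKM of 6 osteoblast markers ranged between 4550 in hydrogel 3 and 17352 in control 3.

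The replication and mitosis genes moved together across the libraries, and the early G1 genes, the ubiquitin ligases and the inhibitors did so less. To put genes of unequal level on 1 scale, each FPKM was divided by the mean of that gene over the 12 libraries, and the median over the genes of a role was taken in each library. For the 9 mitotic cyclins, kinases and phosphatases this relative level was 1.03, 1.12 and 1.83 in the PCL libraries, 0.67, 0.36 and 0.37 in the β-TCP libraries, 1.30, 1.04 and 1.91 in the hydrogel libraries and 0.77, 1.35 and 0.23 in the control libraries. All 3 β-TCP libraries lay below all PCL and hydrogel libraries, and the control libraries lay on both sides of the β-TCP libraries, with control 3 lowest of the 12. The 17 origin and Mcm genes had nearly the same profile, with 1.07, 1.12 and 1.78 in the PCL libraries, 0.67, 0.42 and 0.41 in the β-TCP libraries, 1.27, 1.03 and 1.77 in the hydrogel libraries and 0.85, 1.31 and 0.30 in the control libraries. The 12 inhibitors and p53 genes stayed between 0.77 in PCL 3 and 1.18 in control 3. In bulk RNA, fewer dividing cells and less of these transcripts in each dividing cell cannot be told apart.

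**Figure D1:**
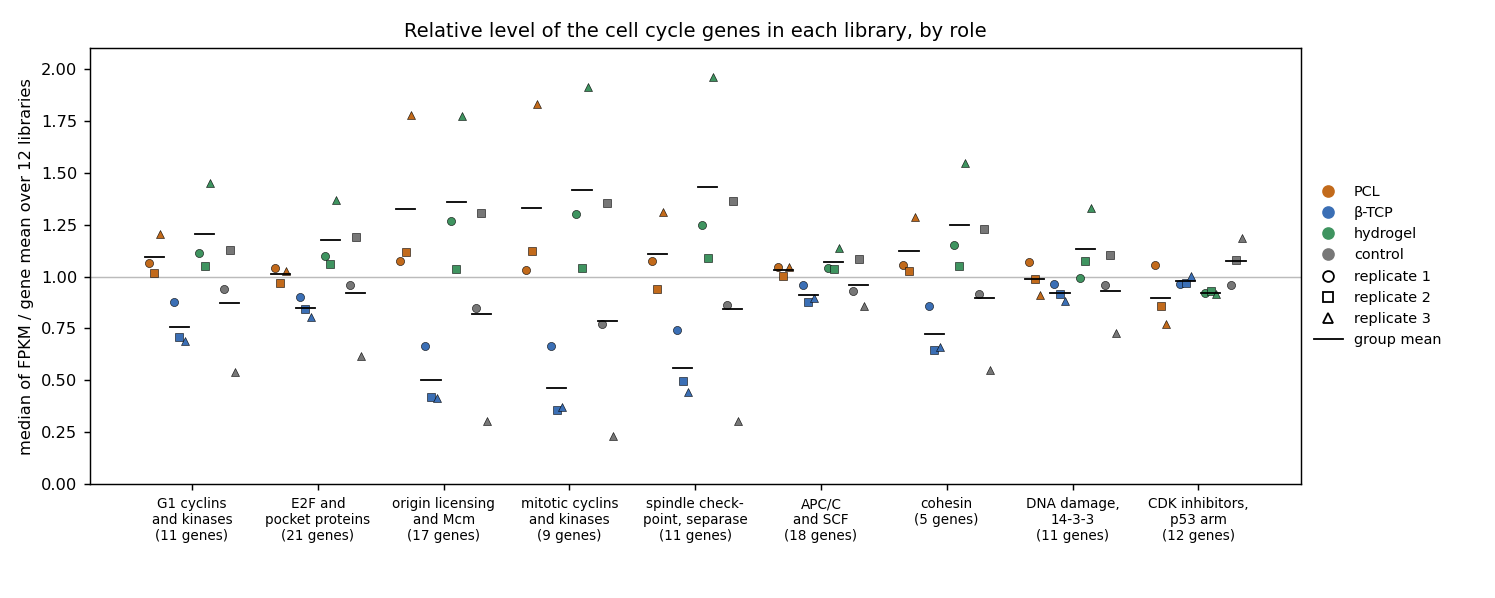
Relative level of the tested cell cycle genes in each of the 12 libraries, grouped by role (horizontal axis, with the number of genes). The vertical axis is the median over the genes of a role of FPKM divided by the gene's mean over the 12 libraries, points are libraries, with 1 symbol for each replicate number, and lines are group means. For origin, mitotic and spindle genes the 3 β-TCP libraries lie below the 3 PCL and the 3 hydrogel libraries, and control 3 lies lowest of all.

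Of the 6 comparisons, β-TCP against hydrogel had the most cell cycle genes past either threshold. At the threshold of the study's methods 39 of 116 cell cycle genes were lower in the β-TCP group, where 5.02% of all genes tested were lower, and 2 were higher, where 3.36% of all genes were. The median log2 fold change of the cell cycle genes was -0.51, against -0.06 over all genes tested, and 99 of the 116 had a negative value. At the adjusted p the comparison called far fewer: 7 cell cycle genes (6.03% of those tested), beside 6.13% of all genes called in either direction. The directions differed: 653 of the 12633 genes tested were called higher and 122 lower, against 1 and 6 of the 116 cell cycle genes. The 6 that fell were Ccne2, Skp2, Pkmyt1, Dbf4, Wee1 and Cdc25c. The 1 that rose was Cdkn2b, which passed the filter on low values only through the β-TCP libraries. Over 21 other settings the call was kept in 17 for Cdkn2b, 15 for Skp2, 12 for Ccne2, 10 for Cdc25c, 9 each for Dbf4 and Wee1 and 6 for Pkmyt1, whose adjusted p reached 0.21. With β-TCP 2 and β-TCP 3 averaged as 1 library, 25 were lower and 1 higher at the threshold of the study's methods and 0 were called by limma at the adjusted p, where 69 had an unadjusted p under 0.05 with the pair kept and limma-voom called 5.

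These counts also depended on single libraries. The number past the threshold of the study's methods was 19 without hydrogel 3, 27 without β-TCP 2 and 26 without β-TCP 3. At the adjusted p, 75 cell cycle genes were called without control 3, when 37.5% of all genes tested were called, and 46 without control 2, when 15.6% were, although control libraries enter this comparison only through the shared estimate of the spread. None was called without hydrogel 3, β-TCP 2 or β-TCP 3, and there were 2 calls without control 1, 1 without hydrogel 1, 3 without PCL 1, 2 without PCL 2 and 4 without β-TCP 1. A fit of only the β-TCP and hydrogel libraries called 72, when 33.6% of all genes tested were called.

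**Figure D2:**
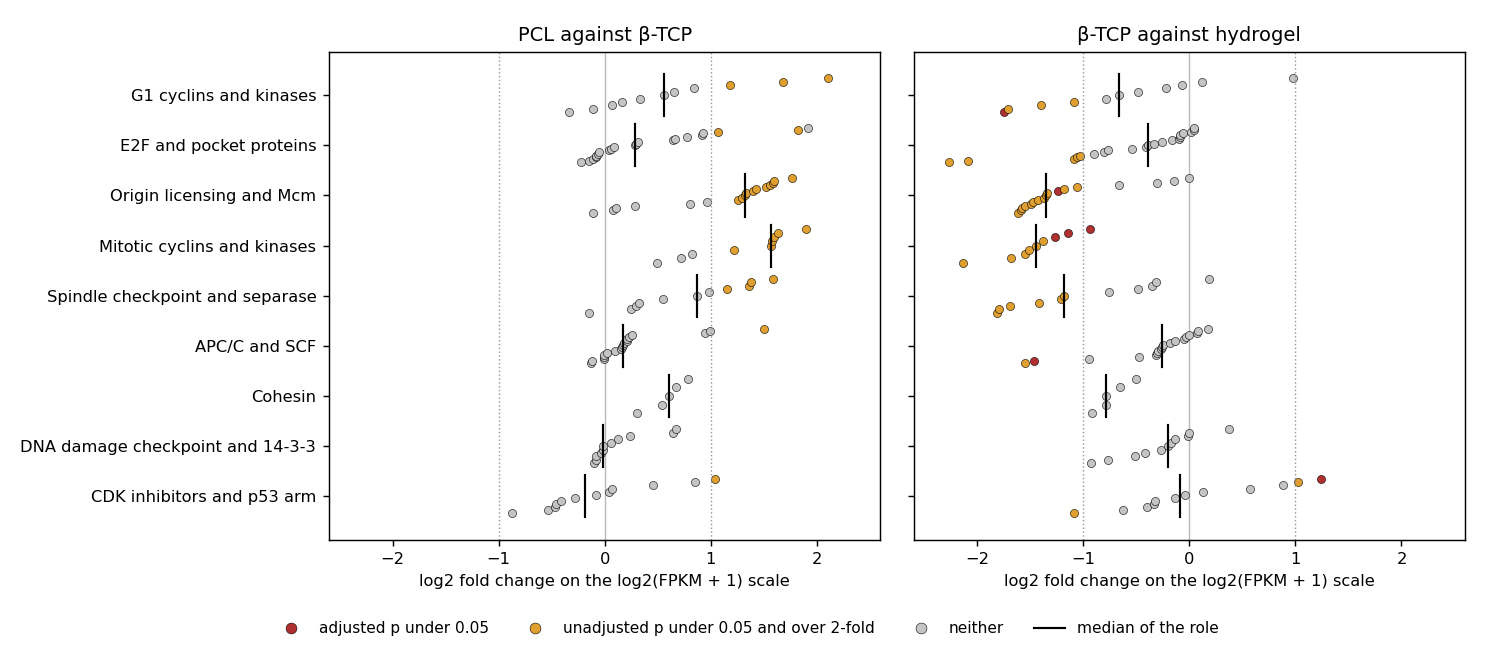
Log2 fold changes, on the log2(FPKM + 1) scale, of the cell cycle genes tested in PCL against β-TCP (left) and β-TCP against hydrogel (right), 1 point per gene, by role. Dotted lines mark a log2 fold change of 1 in either direction, and short black lines the median of a role. In β-TCP against hydrogel the medians of the mitotic (-1.44) and origin (-1.35) genes lie left of the dotted line, and that of the inhibitors (-0.09) lies near 0.

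Of the 11 G1 cyclins and kinases, 4 were lower in the β-TCP group than in the hydrogel group at the threshold of the study's methods, with a median log2 fold change of -0.67. Ccne2, 1 of the 2 E-type cyclins that start S phase, was at 7.98, 4.53 and 4.35 FPKM in the β-TCP libraries, against 18.4, 15.8 and 29.5 FPKM in the hydrogel libraries. The groups did not overlap, and Ccne2 fell by 1.74 on the log2 scale (standard error 0.40, limma adjusted p = 0.034). Ccne1 had 15.1, 6.88 and 6.87 FPKM in the β-TCP libraries, against 34.5, 22.0 and 42.1 FPKM in the hydrogel libraries (log2 fold change -1.71, standard error 0.69, adjusted p = 0.12). Its spread within groups was larger than that of Ccne2. Cdk2, the kinase partner of both, had 15.1, 11.7 and 10.7 FPKM in the β-TCP libraries, against 24.3, 22.5 and 37.4 FPKM in the hydrogel libraries (log2 fold change -1.09, adjusted p = 0.066). Ccne1 had the widest range of the 11 G1 genes, 25.6 times between PCL 3 at 67.6 FPKM and control 3 at 2.64 FPKM.

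The D-type cyclins, which link growth signals to Cdk4 and Cdk6, did not share 1 profile. Ccnd3 was the most abundant of them, with 111, 101 and 149 FPKM in the PCL libraries, 69.3, 46.5 and 43.2 in the β-TCP libraries, 130, 108 and 187 in the hydrogel libraries and 97.7, 149 and 41.2 in the control libraries. Ccnd1 had 22.7, 19.3 and 12.3 FPKM in the PCL libraries, 22.0, 22.5 and 22.7 in the β-TCP libraries, 11.8, 13.8 and 7.95 in the hydrogel libraries and 12.5, 12.2 and 27.5 in the control libraries. It was thus highest in control 3, the library in which most cell cycle genes were lowest, and lowest in hydrogel 3. In β-TCP against hydrogel the log2 fold change was -1.39 for Ccnd3 (standard error 0.40, adjusted p = 0.064) and 0.97 for Ccnd1 (standard error 0.31, adjusted p = 0.076), so neither passed the adjusted threshold, and in both genes the 2 groups did not overlap. The ratio of the FPKM of Ccnd3 to that of Ccnd1 was 4.90, 5.22 and 12.1 in the PCL libraries, 3.15, 2.07 and 1.90 in the β-TCP libraries, 10.98, 7.86 and 23.5 in the hydrogel libraries and 7.81, 12.2 and 1.497 in the control libraries. Ccnd2 lay between them, with 26.6, 23.01 and 24.4 FPKM in the β-TCP libraries and 31.7, 31.3 and 42.3 FPKM in the hydrogel libraries.

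Of the kinases of the D-type cyclins, Cdk4 varied little and Cdk6 more. Cdk4 stayed between 76.6 FPKM in β-TCP 2 and 102 FPKM in hydrogel 3, a range of 1.33 times, and its log2 fold change in β-TCP against hydrogel was -0.22 (standard error 0.10, adjusted p = 0.16). Cdk6, its close relative in blood-forming cells, had 8.21, 6.32 and 6.15 FPKM in the β-TCP libraries and 9.36, 10.4 and 15.3 FPKM in the hydrogel libraries (log2 fold change -0.67, adjusted p = 0.12). Ccnh and Cdk7, chosen for naming after their values were seen, form the kinase that activates the other CDKs. Ccnh was at 16.1 to 20.4 FPKM and Cdk7 at 17.3 to 23.6 FPKM over all 12 libraries.

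Among the 21 genes of the E2F and pocket protein arm, 5 were lower in the β-TCP group than in the hydrogel group at the threshold of the study's methods and none was called. Apart from Cdkn2a, which was at 0 in PCL 3 and so has no ratio, E2f2 had the widest range of the 116 genes, 49.5 times. It had 36.2, 37.9 and 67.0 FPKM in the PCL libraries, 19.6, 8.06 and 8.85 in the β-TCP libraries, 51.9, 34.4 and 73.6 in the hydrogel libraries and 28.8, 50.1 and 1.49 in the control libraries. Its log2 fold change in β-TCP against hydrogel was -2.08 with a standard error of 0.90 (adjusted p = 0.13). E2f1, the founding member of the family, had a smaller log2 fold change, with 5.55, 4.43 and 4.94 FPKM in the β-TCP libraries and 10.4, 9.37 and 16.1 FPKM in the hydrogel libraries (log2 fold change -1.09, standard error 0.34, adjusted p = 0.072). The ratio of E2f2 to E2f1 was 3.54, 1.82 and 1.79 in the β-TCP libraries, 4.98, 3.67 and 4.56 in the hydrogel libraries and 5.19, 4.14 and 0.37 in the control libraries. The pocket protein genes Rb1 and Rbl1, whose products restrain E2F, were also lower in the β-TCP group at that threshold. Rb1 had 23.6, 18.1 and 18.3 FPKM there, against 40.2, 31.7 and 55.9 FPKM in the hydrogel libraries (log2 fold change -1.03, adjusted p = 0.082), and Rbl1 had a log2 fold change of -1.06 (adjusted p = 0.096). E2f2 was not alone in a large difference. Tfdp2, also of this arm and named after its values were seen, had 12.1, 4.56 and 4.53 FPKM in the β-TCP libraries. In the hydrogel libraries Tfdp2 had 29.4, 25.2 and 55.7 FPKM.

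The most abundant genes of this arm were Hdac1, a histone deacetylase that pocket proteins recruit, and E2f4, the E2F most bound by pocket proteins in resting cells. Hdac1 had 69.2, 52.1 and 53.8 FPKM in the β-TCP libraries and 92.9, 91.9 and 123 FPKM in the hydrogel libraries (log2 fold change -0.80, adjusted p = 0.074). E2f4 had 41.2, 28.5 and 30.6 FPKM in the β-TCP libraries and 66.1, 50.6 and 72.6 FPKM in the hydrogel libraries (log2 fold change -0.90, adjusted p = 0.14). Myc, a growth-driving transcription factor upstream of D-type cyclins, did not follow them: it had 22.0, 19.5 and 20.7 FPKM in the β-TCP libraries and 20.4, 22.1 and 23.7 FPKM in the hydrogel libraries, which overlap (log2 fold change -0.08, standard error 0.15).

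The 17 origin licensing and replication genes held 13 that were lower in the β-TCP group than in the hydrogel group at the threshold of the study's methods, with a median log2 fold change of -1.35. Only Dbf4, which encodes the activating subunit of the Cdc7 kinase, passed the adjusted threshold. It was at 0.558, 0.843 and 0.605 FPKM in the β-TCP libraries, against 2.73, 2.07 and 4.27 FPKM in the hydrogel libraries, and fell by 1.24 on the log2 scale (standard error 0.31, limma adjusted p = 0.043). Pcna, the sliding clamp of DNA polymerases, was the most abundant, with 129, 86.5 and 91.8 FPKM in the β-TCP libraries and 247, 203 and 346 FPKM in the hydrogel libraries (log2 fold change -1.35, standard error 0.43, adjusted p = 0.076). The licensing factor Cdc6 had 10.8, 4.81 and 4.73 FPKM in the β-TCP libraries, against 22.1, 14.1 and 29.4 FPKM in the hydrogel libraries (log2 fold change -1.59, adjusted p = 0.12). Cdc45, which completes the active helicase, had a log2 fold change of -1.55 (adjusted p = 0.085), and Orc1, the subunit of the origin recognition complex that varies over the cycle in mammalian cells, one of -1.47 (adjusted p = 0.072). Orc1 was at 2.53, 1.41 and 1.40 FPKM in the β-TCP libraries, against 6.54, 4.87 and 8.84 FPKM in the hydrogel libraries. The core subunits Orc4 and Orc5, named after their values were seen, had 7.95 to 10.4 FPKM and 10.2 to 13.5 FPKM over all 12 libraries, so the subunits of this complex did not vary alike.

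The 6 subunits of the Mcm2 to Mcm7 helicase, which is loaded as a ring of 1 copy of each, had similar profiles, although their proportions were not fixed. Mcm2 was above Mcm3 in control 3 (13.5 and 9.14 FPKM) and below it in control 2 (56.2 and 58.7 FPKM). In each of the 12 libraries Mcm5 had the lowest FPKM of the 6 and Mcm7 the highest, with a coefficient of variation over the 6 of 16.7% in PCL 3 to 26.7% in control 3. Their levels differed far more between libraries than between subunits. Mcm7 had 67.6, 69.9 and 105 FPKM in the PCL libraries, 39.1, 22.6 and 22.0 in the β-TCP libraries, 83.1, 64.0 and 114 in the hydrogel libraries and 51.6, 85.6 and 17.2 in the control libraries. Mcm5 had 36.7, 40.3 and 66.0 FPKM in the PCL libraries, 21.1, 11.9 and 12.5 in the β-TCP libraries, 43.3, 35.3 and 62.1 in the hydrogel libraries and 25.1, 47.2 and 8.32 in the control libraries. The log2 fold changes of the 6 in β-TCP against hydrogel lay between -1.62 for Mcm7 and -1.34 for Mcm4, with adjusted p of 0.069 to 0.10, so all 6 passed the threshold of the study's methods and none the adjusted one.

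**Figure D3:**
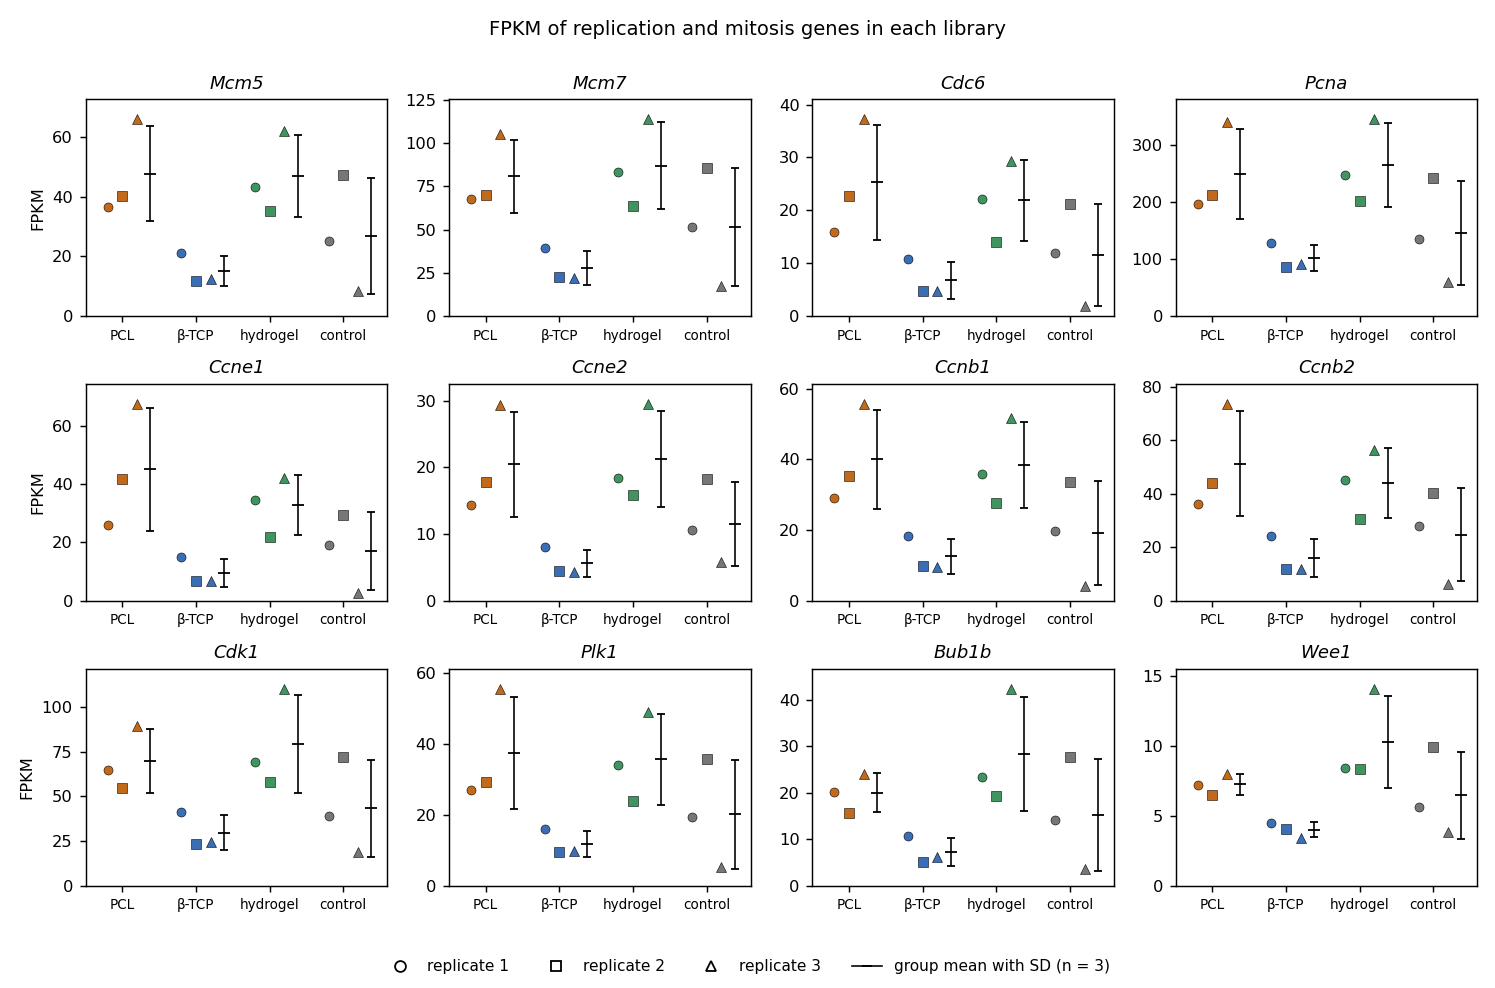
FPKM of 12 replication and mitosis genes in each library (points, with 1 symbol for each replicate number) of the PCL, β-TCP, hydrogel and control groups, with the group mean and SD (n = 3) beside them; each panel has its own linear axis from 0. In each panel the β-TCP libraries lie below the PCL and hydrogel libraries, and the control group has a wide spread, with control 2 high and control 3 low.

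Of the 9 mitotic cyclins, kinases and phosphatases tested, all were lower in the β-TCP group than in the hydrogel group by sign, 8 at the threshold of the study's methods and 3 at the adjusted p. Of the 3 called genes, Wee1 and Pkmyt1 encode kinases that inhibit Cdk1, and Cdc25c a phosphatase that removes their marks. Wee1 had 4.49, 4.05 and 3.43 FPKM in the β-TCP libraries, against 8.42, 8.32 and 14.1 FPKM in the hydrogel libraries, and fell by 1.14 on the log2 scale (standard error 0.28, limma adjusted p = 0.040). Pkmyt1 fell by 1.27 (standard error 0.33, adjusted p = 0.049), with 4.93, 3.19 and 3.80 FPKM in the β-TCP libraries and 10.1, 8.90 and 14.2 FPKM in the hydrogel libraries. Cdc25c fell by 0.93 (standard error 0.22, adjusted p = 0.039), with 3.67, 2.71 and 2.70 FPKM in the β-TCP libraries and 5.88, 6.21 and 8.04 FPKM in the hydrogel libraries. These 3 were the least abundant of the 9. On the log2(FPKM + 1) scale, which understates changes at low FPKM, they had the smallest changes of the 9, with smaller standard errors than the others.

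Cdk1 itself, the mitotic kinase, had 64.8, 54.5 and 89.5 FPKM in the PCL libraries, 41.2, 23.3 and 24.7 in the β-TCP libraries, 69.1, 58.3 and 110 in the hydrogel libraries and 39.0, 72.3 and 18.7 in the control libraries. Its log2 fold change in β-TCP against hydrogel was -1.38 (standard error 0.43, adjusted p = 0.074). The cyclin partners of Cdk1 were also lower in the β-TCP group at the threshold of the study's methods. Ccnb1 had 18.4, 9.83 and 9.68 FPKM in the β-TCP libraries, against 36.0, 27.7 and 51.7 FPKM in the hydrogel libraries (log2 fold change -1.55, adjusted p = 0.10). Ccnb2 had a log2 fold change of -1.44 (adjusted p = 0.12) and Ccna2, the cyclin of S phase and early mitosis, one of -1.69 (adjusted p = 0.075). The ratio of Ccnb1 to Ccnb2 stayed between 0.69 in control 3 and 0.92 in hydrogel 3 over all 12 libraries. Plk1, a kinase of mitotic entry and spindle assembly, had 15.8, 9.36 and 9.68 FPKM in the β-TCP libraries, against 34.0, 23.7 and 49.1 FPKM in the hydrogel libraries (log2 fold change -1.51, adjusted p = 0.10). The most negative value of the 9 was that of Cdc25b, another Cdk1-activating phosphatase, named after its values were seen (log2 fold change -2.13, standard error 0.83, adjusted p = 0.11).

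The stretches before the start sites of the cell cycle genes were read to show which known cell cycle motifs they hold. RefSeq promoters of the rat build GRCr8 were matched by symbol for 93 of the 120 genes. The 250 bases before each start were searched on both strands for the CHR element TTTGAA, which DREAM and MuvB complexes bind in mitotic genes, for the NF-Y site CCAAT and for the E2F sites TTTCCCGC, TTTGGCGC and TTTCGCGC. An E2F site was found for 16.1% of the 93 genes and in 1.41% of all 33469 promoters, CCAAT for 50.5% and in 34.0%, and CHR for 17.2% and in 16.2%. A gene counted if any of its promoters held the motif, whereas the 33469 promoters were counted singly. These shares are therefore of unlike units, and a gene with several promoters had more chances of a match. By role, 6 of 13 origin genes, 1 of 8 mitotic genes and 0 of 11 spindle genes held an E2F site in a promoter, and 2, 3 and 2 of them a CHR element. These roles are not only genes that moved together. The mitotic genes here include Ccna1 and Ccnb3, which were not tested and held no motif. The origin genes with an E2F site include Orc3 and Orc5, whose FPKM ranged only 1.77 and 1.32 times over the libraries. Matches of this kind are descriptions of the sequence, not shown sites.

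Shown first are the mitotic genes Ccnb2 and Cdk1 and the APC/C activator gene Cdc20, which hold both CHR and CCAAT (Cdk1 also an E2F match), as the last 200 bases before the start, 5′ to 3′ on the strand of the gene, with motif matches in capitals (ATTGG is CCAAT read on the other strand).
Ccnb2 (chr8:79981659-79981858, minus strand): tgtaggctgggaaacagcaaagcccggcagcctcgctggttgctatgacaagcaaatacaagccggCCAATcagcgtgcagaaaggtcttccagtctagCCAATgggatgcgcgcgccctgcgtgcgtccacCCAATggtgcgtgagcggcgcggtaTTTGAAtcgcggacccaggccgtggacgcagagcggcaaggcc
Cdk1 (chr20:19265093-19265292, plus strand): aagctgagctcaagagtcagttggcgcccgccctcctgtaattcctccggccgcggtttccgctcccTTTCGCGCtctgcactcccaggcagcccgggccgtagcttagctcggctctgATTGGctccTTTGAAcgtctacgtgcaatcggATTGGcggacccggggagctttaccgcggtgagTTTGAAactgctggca
Cdc20 (chr5:137255800-137255999, minus strand): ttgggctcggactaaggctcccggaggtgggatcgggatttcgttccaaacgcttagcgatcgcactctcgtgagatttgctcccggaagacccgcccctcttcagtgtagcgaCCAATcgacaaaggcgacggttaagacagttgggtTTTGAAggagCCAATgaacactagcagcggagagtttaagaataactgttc

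The next 3 are helicase genes, shown because they hold E2F and CCAAT matches and no CHR in these stretches. In Mcm6 a pair of E2F matches on opposite strands overlap, and in Mcm7 the E2F match shares its last base with a CCAAT.
Mcm5 (chr19:13488613-13488812, plus strand): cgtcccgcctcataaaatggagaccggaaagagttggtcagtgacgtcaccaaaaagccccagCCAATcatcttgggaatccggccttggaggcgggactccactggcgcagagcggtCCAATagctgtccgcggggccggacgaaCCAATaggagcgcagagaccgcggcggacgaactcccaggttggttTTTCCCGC
Mcm6 (chr13:42404353-42404552, minus strand): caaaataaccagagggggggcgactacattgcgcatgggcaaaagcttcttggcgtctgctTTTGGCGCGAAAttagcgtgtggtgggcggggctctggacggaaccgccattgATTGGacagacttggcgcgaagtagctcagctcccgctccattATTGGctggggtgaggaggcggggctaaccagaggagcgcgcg
Mcm7 (chr12:22163179-22163378, minus strand): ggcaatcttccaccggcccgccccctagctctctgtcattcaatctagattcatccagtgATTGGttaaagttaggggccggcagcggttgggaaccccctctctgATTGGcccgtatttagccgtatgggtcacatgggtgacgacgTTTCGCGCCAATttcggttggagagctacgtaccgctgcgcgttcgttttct

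Cdk4, whose FPKM varied little over the libraries, is shown beside them and holds none of the letters searched. This 1 gene is no rule, since the promoters of Ccne1, Bub1, Bub1b and Skp2, whose FPKM varied widely, held none either, and that of Orc5, whose FPKM varied little, held an E2F match.
Cdk4 (chr7:64771253-64771452, plus strand): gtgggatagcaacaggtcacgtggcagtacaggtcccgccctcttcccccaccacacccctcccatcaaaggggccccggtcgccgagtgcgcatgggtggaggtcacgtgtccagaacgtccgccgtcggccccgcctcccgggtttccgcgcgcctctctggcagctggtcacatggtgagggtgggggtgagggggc

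Of the 11 spindle checkpoint and separase genes, 6 were lower in the β-TCP group than in the hydrogel group at the threshold of the study's methods and none was called by limma at the adjusted p, where 9 had an unadjusted p under 0.05. Bub1b, which encodes the checkpoint protein BubR1, had 10.7, 4.98 and 6.17 FPKM in the β-TCP libraries, against 23.4, 19.4 and 42.3 FPKM in the hydrogel libraries (log2 fold change -1.81, standard error 0.57, adjusted p = 0.073). Bub1 and Ttk, the kinases that recruit checkpoint proteins to unattached kinetochores, had log2 fold changes of -1.69 (adjusted p = 0.071) and -1.21 (adjusted p = 0.097). Pttg1 encodes securin, which holds separase inactive until anaphase, and had 17.0, 9.26 and 9.36 FPKM in the β-TCP libraries, against 41.8, 30.5 and 58.3 FPKM in the hydrogel libraries (log2 fold change -1.80, adjusted p = 0.080). Bub3, the most abundant of the 11, had a smaller log2 fold change, with 43.9, 34.2 and 35.5 FPKM in the β-TCP libraries and 58.9, 58.0 and 77.8 FPKM in the hydrogel libraries (log2 fold change -0.76, adjusted p = 0.072).

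Within the 18 genes of the APC/C and of SCF, the ligase of G1 and S phase, 2 passed the threshold of the study's methods in the same comparison, and both encode subunits that choose substrates. Skp2, through which SCF marks Cdkn1b for destruction, had 5.03, 3.75 and 3.36 FPKM in the β-TCP libraries, against 11.1, 10.6 and 17.5 FPKM in the hydrogel libraries, and fell by 1.46 on the log2 scale (standard error 0.32, limma adjusted p = 0.031). Cdc20, the mitotic activator of the APC/C, had 21.5, 13.8 and 13.4 FPKM in the β-TCP libraries, against 42.6, 36.1 and 73.3 FPKM in the hydrogel libraries (log2 fold change -1.55, standard error 0.54, adjusted p = 0.087). Fzr1, which encodes another activator of the APC/C and was named after its values were seen, passed neither threshold. It had 25.6, 17.2 and 18.2 FPKM in the β-TCP libraries, against 44.5, 28.0 and 49.7 FPKM in the hydrogel libraries. Its range over the 12 libraries was 4.62 times. The core subunits varied far less. Skp1, the most abundant of the 18, stayed between 164 and 188 FPKM, and the APC/C subunit gene Anapc2, named after its values were seen, between 28.5 and 33.6 FPKM over all 12 libraries. The median log2 fold change of the 18 was -0.25.

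The 5 cohesin genes tested, whose ring holds sister chromatids together, were all lower by sign in the β-TCP group than in the hydrogel group, each with an unadjusted p under 0.05, and none passed either threshold. Rad21 had 62.7, 49.4 and 50.5 FPKM in the β-TCP libraries, against 95.9, 83.8 and 135 FPKM in the hydrogel libraries (log2 fold change -0.92, adjusted p = 0.074), and Smc1a had a log2 fold change of -0.79 (adjusted p = 0.087). Among the 11 DNA damage checkpoint and 14-3-3 genes, Chek1, the kinase that halts the cycle when replication stalls, had 7.66, 5.72 and 4.89 FPKM in the β-TCP libraries and 10.7, 10.9 and 16.1 FPKM in the hydrogel libraries (log2 fold change -0.93, standard error 0.25, adjusted p = 0.055). The abundant 14-3-3 genes Ywhae and Ywhaz, whose products bind phosphorylated proteins, had log2 fold changes of -0.18 and -0.02 with standard errors of 0.15 and 0.12. The single gene without a role here, Hdac1l, a deacetylase gene close in name to Hdac1 that may share reads with it, was at 1.65 to 4.75 FPKM.

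The CDK inhibitors did not share 1 profile. Of the 12 inhibitors and p53 genes, 2 were higher and 1 lower in the β-TCP group than in the hydrogel group at the threshold of the study's methods. Cdkn2b, which encodes the Ink4 inhibitor p15 of Cdk4 and Cdk6, was at 1.33, 0.733 and 0.646 FPKM in the PCL libraries, 2.599, 2.30 and 2.48 in the β-TCP libraries, 0.628, 0.572 and 0.228 in the hydrogel libraries and 0.768, 0.574 and 1.54 in the control libraries. All 3 β-TCP libraries lay above the other 9. Outside the β-TCP group only PCL 1 and control 3 reached 1 FPKM, and all hydrogel values lay under it. The gene thus passed the filter of 3 libraries only through the group where it was high. Cdkn2b rose in the β-TCP group by 1.24 against hydrogel (standard error 0.20, limma adjusted p = 0.012) and by 0.85 against control (standard error 0.20, adjusted p = 0.042), and its log2 fold change in PCL against β-TCP was -0.88 (adjusted p = 0.085). The adjusted p of Cdkn2b in β-TCP against hydrogel ranged between 0.0041 and 0.066 over 21 other settings, and it missed the threshold without β-TCP 2, β-TCP 3 or hydrogel 3 and with the β-TCP pair averaged. The call against control was lost in 17 of 21 settings, with adjusted p of 0.018 to 0.17, and was kept only without control 3, hydrogel 3, PCL 1 or PCL 3.

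Cdkn1a, which encodes the p53-induced inhibitor p21, had 20.6, 15.9 and 13.3 FPKM in the PCL libraries, 21.2, 25.6 and 26.1 in the β-TCP libraries, 10.6, 13.8 and 10.03 in the hydrogel libraries and 16.7, 13.2 and 35.8 in the control libraries. It was higher in the β-TCP group than in the hydrogel group at the threshold of the study's methods (log2 fold change 1.03, standard error 0.30, adjusted p = 0.068) and, like Ccnd1, was highest in control 3 and lowest in hydrogel 3. Cdkn2c, which encodes the Ink4 inhibitor p18, went with the replication genes instead: it had 12.1, 8.68 and 9.12 FPKM in the β-TCP libraries, against 21.8, 17.6 and 27.8 FPKM in the hydrogel libraries (log2 fold change -1.08, adjusted p = 0.083). Cdkn1b, which encodes p27, overlapped between the β-TCP and hydrogel groups, with 96.7, 78.1 and 73.3 FPKM in the β-TCP libraries and 86.9, 81.4 and 104 FPKM in the hydrogel libraries, and its lowest value was 41.0 FPKM in control 3. Cdkn1c, which encodes p57 and is expressed in growth plate cartilage, had 11.2, 9.30 and 7.54 FPKM in the PCL libraries, 10.8, 7.28 and 9.19 in the β-TCP libraries, 11.6, 12.01 and 11.2 in the hydrogel libraries and 15.6, 19.8 and 56.9 in the control libraries. All 9 scaffold libraries were below the 3 control libraries.

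**Figure D4:**
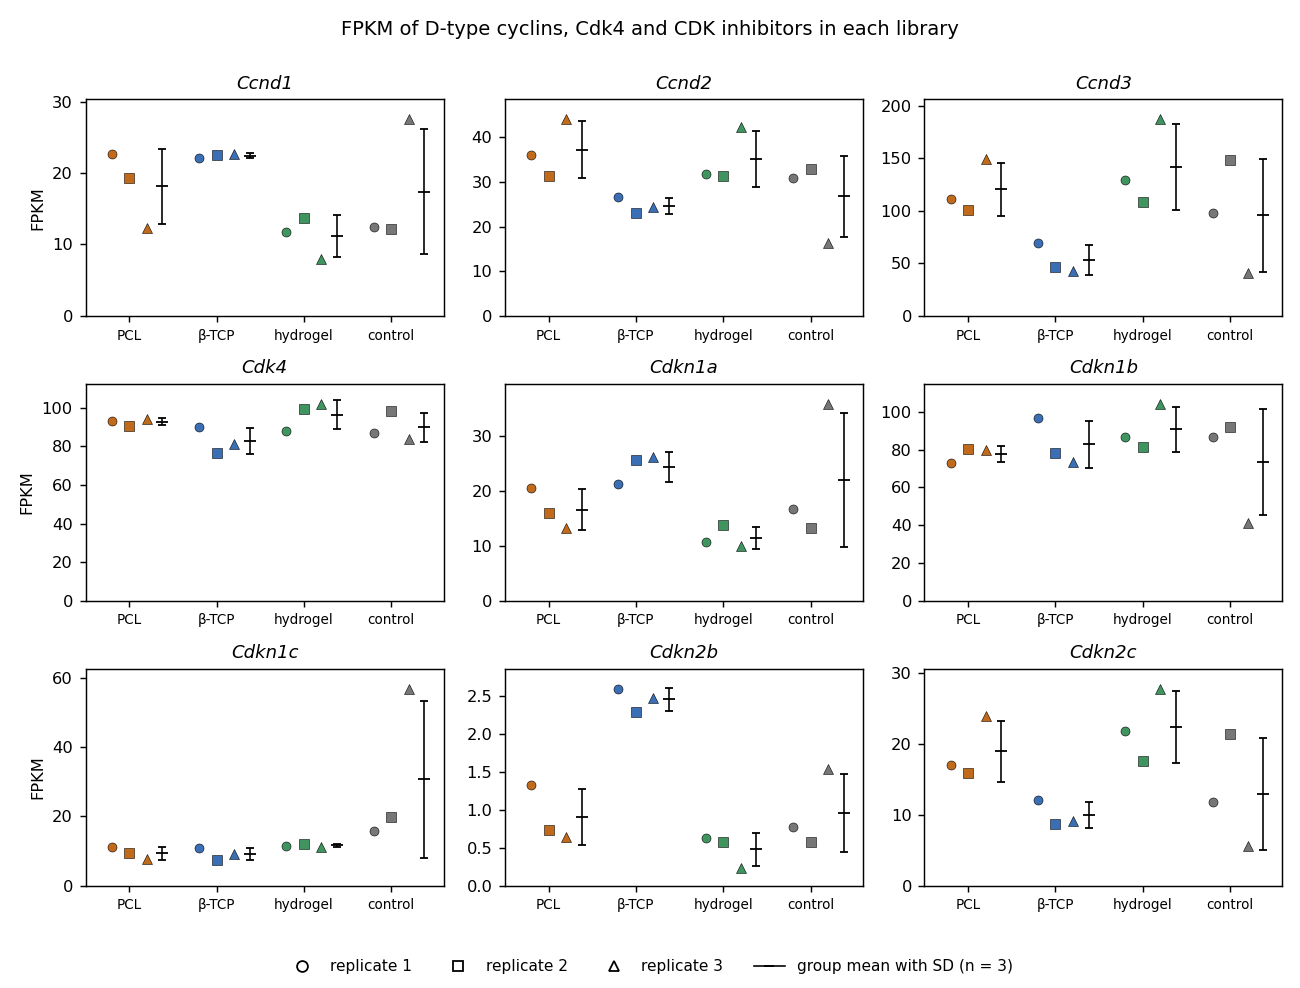
FPKM of the 3 D-type cyclins, Cdk4 and 5 CDK inhibitors in each library (points, with 1 symbol for each replicate number) of the PCL, β-TCP, hydrogel and control groups, with the group mean and SD (n = 3) beside them; each panel has its own linear axis from 0. Ccnd3 and Cdkn2c are low in the β-TCP libraries and in control 3, Ccnd1, Cdkn1a and Cdkn2b are among their highest there, with PCL 1 as high for Ccnd1, and Cdk4 varies little.

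In PCL against β-TCP the same roles stood out with the opposite sign. These 2 comparisons share the β-TCP libraries, so 1 is no independent support for the other. At the threshold of the study's methods 28 of 116 cell cycle genes were higher in the PCL group, where 3.34% of all genes tested were higher, and 0 were lower, where 1.14% of all genes were. None was called by limma at the adjusted p, where 0.657% of all genes were called, and 54 had an unadjusted p under 0.05. Limma-voom on the recovered fragments also called 0. The median log2 fold change of the cell cycle genes was 0.32, against -0.04 over all genes. The 28 comprised 11 of 17 origin genes, 6 of 9 mitotic genes, 4 of 11 spindle genes, 3 of 11 G1 genes, 2 of 21 E2F genes, 1 of 18 ubiquitin ligase genes and 1 of 12 inhibitors and p53 genes. Ccne1 had the largest log2 fold change, with 25.96, 41.7 and 67.6 FPKM in the PCL libraries, against 15.1, 6.88 and 6.87 FPKM in the β-TCP libraries (log2 fold change 2.101, standard error 0.69, adjusted p = 0.14). Cdc25b and Tfdp2, a partner of the E2F proteins, both named after their values were seen, were at 1.90 (adjusted p = 0.21) and 1.83 (adjusted p = 0.20). Cdc6 was at 1.76 (adjusted p = 0.17), Ccnb2 at 1.64 (adjusted p = 0.16) and Orc1 at 1.59 (adjusted p = 0.12). The count of 28 was 13 with β-TCP 2 and β-TCP 3 averaged, 15 without β-TCP 2, 13 without β-TCP 3 and 8 without PCL 3, the PCL library with the most hemoglobin RNA. Without control 3, 48 were called at the adjusted p, when 15.1% of all genes tested were called.

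PCL against hydrogel showed little. No cell cycle gene passed the threshold of the study's methods, where 0.546% of all genes tested were higher and 0.222% lower in the PCL group, and this count was 0 in each of the 12 fits without 1 library. Limma called 0 at the adjusted p, where 0.103% of all genes were called, limma-voom called 0, and 3 had an unadjusted p under 0.05. These 3, named for their count and not by their role, were Mdm2, Ywhag and Smad4, with log2 fold changes of -0.33, 0.27 and -0.31. The median of the cell cycle genes was -0.12, against -0.06 over all genes. By sign 32 were higher and 84 lower in the PCL group as deposited, and 55 higher and 61 lower with median-of-ratios scaling, so this split depended on the scaling. Mcm5 averaged 47.6 ± 16.0 FPKM in the PCL group and 46.9 ± 13.8 FPKM in the hydrogel group (SD, n = 3 each), and Ccnb1 40.0 ± 13.97 and 38.5 ± 12.2 FPKM in the same groups. The size of difference that 3 libraries a group could detect at this spread was not tested. A lack of calls is thus no evidence that the groups were equal.

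Against the control group, the cell cycle genes had mostly positive log2 fold changes with hydrogel and PCL and mostly negative ones with β-TCP, and few passed a threshold. In hydrogel against control 3 of 116 were higher at the threshold of the study's methods (Ccnb1, Pcna and Cdk1), where 0.807% of all genes tested were higher, and 1 was lower (Cdkn1c), where 1.48% of all genes were. Limma called 0 at the adjusted p, where 0.00792% of all genes were called, limma-voom called 0, and 19 had an unadjusted p under 0.05. The median log2 fold change was 0.40 over the cell cycle genes and 0.14 over all genes, and with median-of-ratios scaling it was 0.26 and 0.01. By sign 103 were higher in the hydrogel group as deposited and 85 with that scaling. The count of 4 was 0 without control 3, 37 without control 2, 10 without hydrogel 2, 2 without hydrogel 1, PCL 1, β-TCP 2 or β-TCP 3, 1 without hydrogel 3 and 2 with the β-TCP pair averaged. Cdk1 averaged 79.3 ± 27.5 FPKM in the hydrogel group and 43.3 ± 27.1 FPKM in the control group (SD, n = 3 each), and the groups overlapped.

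In PCL against control 5 of 116 were higher at that threshold (Ccne1, Ccnb1, Ccnb2, Orc1 and Gadd45a), where 2.37% of all genes tested were higher, and 1 was lower (Cdkn1c), where 1.27% were. Gadd45a, a stress-induced growth arrest gene named only through this count, had 44.9, 55.6 and 78.2 FPKM in the PCL libraries, against 37.2, 43.6 and 13.8 FPKM in the control libraries. Limma called 0 at the adjusted p, where 0.277% of all genes were called, limma-voom called 0, and 15 had an unadjusted p under 0.05. The median was 0.22, against 0.04 over all genes, and with hemoglobin genes left out it was 0.14, against -0.04. The count of 6 was 0 without control 3, 33 without control 2, 10 without PCL 1, 2 without PCL 2 and 1 without PCL 3.

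In β-TCP against control Cdkn2b was the 1 gene of 116 called at the adjusted p, where 4.78% of all genes tested were called, and limma-voom called 0. As stated above, Cdkn2b has low FPKM and passed the filter only through the β-TCP libraries, the group where it was high. At the threshold of the study's methods 0 were higher, where 2.49% of all genes were, and 1 was lower (Cdkn1c, log2 fold change -1.44, standard error 0.37, adjusted p = 0.056), where 1.03% were. The median was -0.19, against 0.03 over all genes, and with hemoglobin genes left out it was -0.31, against -0.09. As deposited, 8 genes had an unadjusted p under 0.05. Without control 3, 25 passed the threshold of the study's methods, 24 of them lower in the β-TCP group, when 6.39% of all genes tested passed it in either direction, and 19 were called at the adjusted p, when 10.7% of all genes were. In the fit that left out β-TCP 1, 2 genes passed the threshold of the study's methods. The adjusted call of Cdkn2b was lost without control 1, control 2, hydrogel 1, hydrogel 2, PCL 2 or any 1 β-TCP library.

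Proliferation genes outside the annotation behaved like the mitotic ones. Of a list of 30 others, 29 were lower in the β-TCP group than in the hydrogel group at the threshold of the study's methods and 25 were higher in the PCL group than in the β-TCP group, with medians of -1.48 and 1.36. The list was measured in the same libraries and chosen with earlier results of these data known, so it is no independent support. Of all genes tested, 5.02% were lower at that threshold in the first comparison and 3.34% higher in the second. Limma called 0 of the 30 at the adjusted p in either comparison, where it called 6.13% and 0.657% of all genes. An unadjusted p under 0.05 was found for 30 and 26 of the list. Mki67, the Ki-67 antigen of cycling cells, had 70.2, 85.4 and 147 FPKM in the PCL libraries, 43.2, 19.0 and 19.3 in the β-TCP libraries, 98.3, 60.6 and 129 in the hydrogel libraries and 51.7, 96.3 and 7.01 in the control libraries. Foxm1, a transcription factor of the mitotic genes, had 6.53, 3.70 and 4.42 FPKM in the β-TCP libraries, against 11.97, 11.6 and 21.7 FPKM in the hydrogel libraries (log2 fold change -1.42, adjusted p = 0.075).

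Markers of marrow blood cells were also lower in the β-TCP libraries than in the hydrogel libraries, and their part in these results was not tested. The summed FPKM of 13 erythroid markers was 38103 to 105335 in the PCL libraries, 11598 to 26177 in the β-TCP libraries, 33941 to 71031 in the hydrogel libraries and 2980 to 48870 in the control libraries, lowest in control 3. Hba1 and Hbb made up most of this sum in every library. In β-TCP against hydrogel 1 of the 12 erythroid markers tested was lower at the threshold of the study's methods, and in PCL against β-TCP 3 of 12 were higher. Of all genes tested, 5.02% were lower in the first comparison and 3.34% higher in the second. The share of 5.02% also stands beside the B lineage and neutrophil counts below. The sum of 9 B lineage markers was 108 to 423 in the PCL libraries, 54.1 to 173 in the β-TCP libraries, 455 to 874 in the hydrogel libraries and 15.9 to 602 in the control libraries, and 7 of 9 were lower in the β-TCP group than in the hydrogel group at that threshold. Unlike the replication and mitosis genes, this sum overlapped between the PCL and β-TCP libraries. The sum of 10 neutrophil markers was 1755 to 5361 in the PCL libraries, 861 to 1195 in the β-TCP libraries, 2219 to 4632 in the hydrogel libraries and 58.8 to 3158 in the control libraries, and 6 of 9 tested were lower in the β-TCP group than in the hydrogel group. S100a8 and S100a9 made up most of this sum in every library. Between the PCL and β-TCP libraries, Mpo, Elane, Prtn3, Ctsg, Lcn2 and Ltf overlapped, and S100a8, S100a9, Camp and Ngp did not. In PCL against β-TCP 0 of the 9 tested passed that threshold, where 3.34% of all genes tested were higher and 1.14% lower. Of these defining markers Vpreb1, of B cell precursors, was at 0 in control 3, and the neutrophil gene Ltf was at or near 0 in all libraries.

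Osteoclast markers were highest in the β-TCP group. The sum of 5 osteoclast markers was 3351 to 4903 in the PCL libraries, 9431 to 9627 in the β-TCP libraries, 2273 to 5159 in the hydrogel libraries and 3419 to 5551 in the control libraries. In β-TCP against hydrogel 3 of the 4 osteoclast markers tested rose at the adjusted p, and 2 of 6 macrophage markers did so too. Of all 12633 genes tested, 653 rose at the adjusted p in this comparison. Another macrophage marker, Cd163, was lower in the β-TCP group at the threshold of the study's methods, with 8.30, 6.54 and 5.93 FPKM in the β-TCP libraries, against 22.0, 22.1 and 27.7 FPKM in the hydrogel libraries (log2 fold change -1.66, standard error 0.44, adjusted p = 0.052). The sum of 7 chondrocyte markers was 185 to 435 in the PCL libraries, 258 to 928 in the β-TCP libraries, 287 to 723 in the hydrogel libraries and 2022 to 12359 in the control libraries, highest in control 3, which also had the highest Cdkn1c. The sum of 4 muscle markers was 12.3 to 119 in the PCL libraries, 14.6 to 24.3 in the β-TCP libraries, 14.5 to 178 in the hydrogel libraries and 14.03 to 31.5 in the control libraries.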

How the data were processed

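The deposited table gives FPKM for 22601 genes in 12 libraries, 3 in each of 4 groups. The authors obtained the deposited FPKM with cufflinks from hisat2 alignments of reads trimmed in Trimmomatic, on Rnor_6.0 according to the submitters' processing notes. The sample labels and the methods name different library kits. Values in 3 further columns matched no label and were not used. FPKM were whole multiples of 1 fragment, within 0.01, in all 18684 genes above 0 (100%), which gave the depth. A gene entered the tests when 3 or more libraries reached 1 FPKM. The two-sided tests used log2(FPKM + 1) and limma 3.58.1 (R 4.3.3), with 1 mean per group, with a trend and Benjamini-Hochberg adjustment, after a test on simulated data. The gene set, roles, lists and tests were chosen with earlier results of these data known. Named genes are a fixed list of core genes (cyclins, CDKs and their inhibitors, E2f1, E2f2, Rb1, Rbl1, Myc, the Mcm genes, Pcna, Cdc6, Cdc45, Orc1, Plk1, Wee1, Chek1, Cdc20, Bub1, Bub1b, Ttk and Pttg1), up to 4 called members of each role and, in a role without a call, the 2 most abundant. Alternatives were another pseudocount, no filter, median-of-ratios scaling, quantile normalization, hemoglobin genes left out, a fit of 2 groups, the replicate number as a block, limma-voom on recovered fragments, β-TCP 2 and 3 averaged, and each library left out.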

Additional observations from a re-analysis of the deposited data

How the results depend on the processing

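The number of cell cycle genes called in β-TCP against hydrogel (7) was 3 with no filter, 13 with median-of-ratios scaling, 20 with quantile normalization, 11 without hemoglobin genes, 72 in a fit of the 2 groups and 0 with the β-TCP pair averaged. That of PCL against β-TCP (0) was 56 in a fit of the 2 groups, and that of β-TCP against control (1) was 0 with a pseudocount of 0.1 FPKM, limma-voom, the pair averaged, a fit of the 2 groups and either of the other scalings (median-of-ratios, quantile). At the threshold of the study's methods, β-TCP against hydrogel (41) gave 26 and PCL against β-TCP (28) gave 13 with the pair averaged. Hydrogel against control (4) gave 1 with median-of-ratios scaling, quantile normalization or hemoglobin genes left out, 0 in a fit of the 2 groups and 2 with the pair averaged. PCL against control (6) gave 3 without hemoglobin genes and 1 in a fit of the 2 groups, and β-TCP against control (1) gave 3 with a pseudocount of 0.1 FPKM and 2 with limma-voom. Leaving out 1 library at a time gave 0 to 75 calls in β-TCP against hydrogel, 0 to 48 in PCL against β-TCP and 0 to 19 in β-TCP against control. At the threshold of the study's methods it gave 19 to 47, 8 to 34 and 1 to 25 in these comparisons, 0 to 37 in hydrogel against control and 0 to 33 in PCL against control. Of the 8 calls on single genes none reversed in 21 alternatives, but most were often lost: Cdkn2b against control in 17, and against hydrogel Pkmyt1 in 15, Dbf4 and Wee1 in 12 each, Cdc25c in 11, Ccne2 in 9, Skp2 in 6 and Cdkn2b in 4.

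The replicate numbers did not pair the libraries: 4 of 18 same-numbered pairs had deviations correlated above 0.1 (-0.61 to 0.47), and 2 of 12 libraries correlated best with their own number. With the replicate number as a block, 1 cell cycle gene was called in β-TCP against hydrogel and 0 in β-TCP against control, and 1 and 3 passed the threshold of the study's methods in hydrogel and PCL against control.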
